A study of Mus musculus with 8 samples.

Results

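The genes described here are 10 of choline use and phospholipid synthesis: Slc44a1, Chka, Pcyt1a, Chpt1, Cept1, Etnk2, Pcyt2, Pemt, Chdh and Lpcat3. They were picked by symbol for their role in the pathway, and all 10 were among the 25239 gene symbols counted in each liver. Bulk RNA-Seq had been done on 8 livers of C57Bl6/J males homozygous for floxed Smo, 4 given AAV8-TBG-Luciferase (control) and 4 given AAV8-TBG-Cre Recombinase (Smo-KO). The sample labels call the control genotype WT, but by the study design both groups carry the floxed Smo alleles. Every mouse ate the CDA-HFD, which lacks choline and supplies 60% of its calories as fat, for 6 weeks, and received its vector 1 week before sacrifice. The TBG promoter directs Cre to hepatocytes and not to the other cells of the liver. No mice on a diet with choline were analysed here, so the data compare genotypes on the diet and do not show the response to the diet itself.

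Choline enters the hepatocyte through transporters and then meets a fork. Choline kinase phosphorylates it, CTP:phosphocholine cytidylyl transferase activates it to CDP-choline, and a phosphotransferase joins it to diacylglycerol to give phosphatidylcholine, the main phospholipid of membranes and of the lipoprotein surface; a parallel branch makes phosphatidylethanolamine from ethanolamine. The liver can also methylate phosphatidylethanolamine to phosphatidylcholine with S-adenosylmethionine, a route known to matter most when the diet lacks choline. The other arm of the fork oxidizes choline to betaine in mitochondria, which removes it from lipid synthesis.

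The 8 libraries held between 8203299 and 9999732 reads on genes. CPM below are these counts scaled to library size by the TMM method. A count of 3 reads corresponds to between 0.297 and 0.366 CPM, and the 10 genes had between 104 and 6293 reads per liver. Smo itself separated the groups: it measured 8.17, 8.49, 8.74 and 8.21 CPM in controls 1 to 4, against 5.67, 3.93, 4.27 and 4.37 CPM in Smo-KO livers 1 to 4 (exact permutation test, two-sided p = 0.0286, the lowest that 4 against 4 can reach). In edgeR (quasi-likelihood F test, adjusted over all genes tested) the p was 0.0957. Smo-KO mouse 1 kept the most Smo. Hepatocyte markers were abundant in each library, with Alb at 16570 ± 973 CPM in control and 15338 ± 897 CPM in Smo-KO livers (SD, n = 4 each). Because whole liver was sequenced, fewer cells of a type and less RNA per cell cannot be told apart.

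No difference in these 10 genes between Smo-KO and control livers was called after adjustment. None passed 0.05 after adjustment in edgeR (adjusted p from 0.294 to 0.957), in DESeq2's Wald test, or under any other setting that was run, where the lowest was 0.123. The same edgeR test called 0 of all 12977 genes tested (0%) and DESeq2 called 163 (1.26%). At an unadjusted p under 0.05 in edgeR's test, 1 of the 10 genes, Chpt1, was called, against 13.8% of all genes tested. In 0 of the 10 did the 4 values of a group all lie above the 4 of the other, against 7.37% of all genes tested (3.03% higher and 4.34% lower in Smo-KO livers). By fitted values, 5 of the genes lay above their control level in Smo-KO livers and 5 below it, with a median log2 fold change of 0.00, as over all genes (-0.00).

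The intervals show what size of change these data leave possible. The 95% intervals of the fold between Smo-KO and control livers reached from 0.691 (Chka) to 1.55 (Etnk2) at their widest. In 9 of the 10 genes the interval lay within a 1.5-fold change in either direction, and in all 10 within a 2-fold change. Each interval holds for its own gene at 95% and was not widened for reading 10 together. The difference between group means was smaller than the SD between mice of a group in 8 of the 10 genes on the log2 scale, Chpt1 and Chdh being the exceptions.

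**Figure D1:**
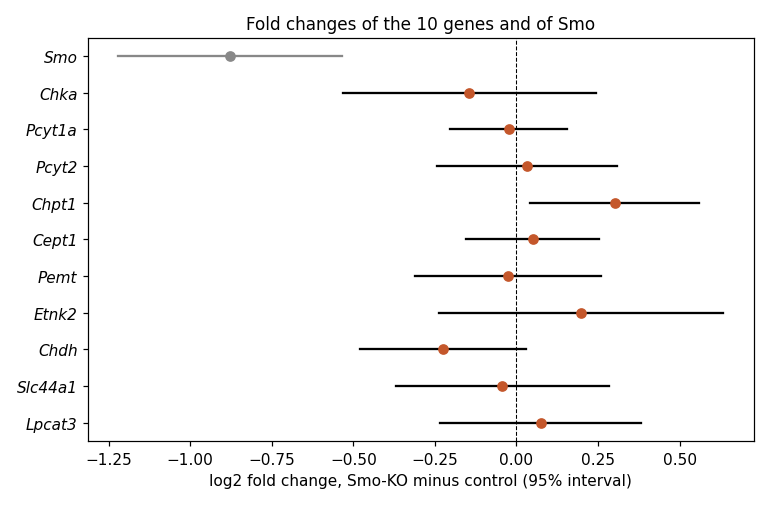
Log2 fold change (x axis, Smo-KO minus control) of Smo and the 10 genes (y axis), with dots for the estimate of edgeR's quasi-likelihood fit and lines for its 95% interval. The interval of Smo (-1.22 to -0.53) lies wholly below 0, that of Chpt1 (0.04 to 0.56) just above it, and the other 9 cross it.

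The genes differ widely in abundance. Divided by the exon length of each gene, the mean over the 8 livers was 175 CPM per kb for Pemt, 129.6 for Pcyt2, 75.3 for Etnk2, 47.9 for Lpcat3, 31.3 for Cept1, 22.9 for Chdh, 15.3 for Pcyt1a, 11.1 for Chpt1, 6.53 for Chka and 2.45 for Slc44a1. In this order each gene stood above the next in all 8 livers, although the ranges of some neighbours (Pemt and Pcyt2, Etnk2 and Lpcat3, Pcyt1a and Chpt1, Chpt1 and Chka) overlapped between livers. The length is that of all annotated exons together, so genes with long alternative ends, such as Chka with 12024 bases, may stand too low. Per length, then, RNA of the methylating enzyme Pemt and of Pcyt2 in the ethanolamine branch was more abundant than that of the enzymes that commit choline itself, Chka and Pcyt1a.

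**Figure D2:**
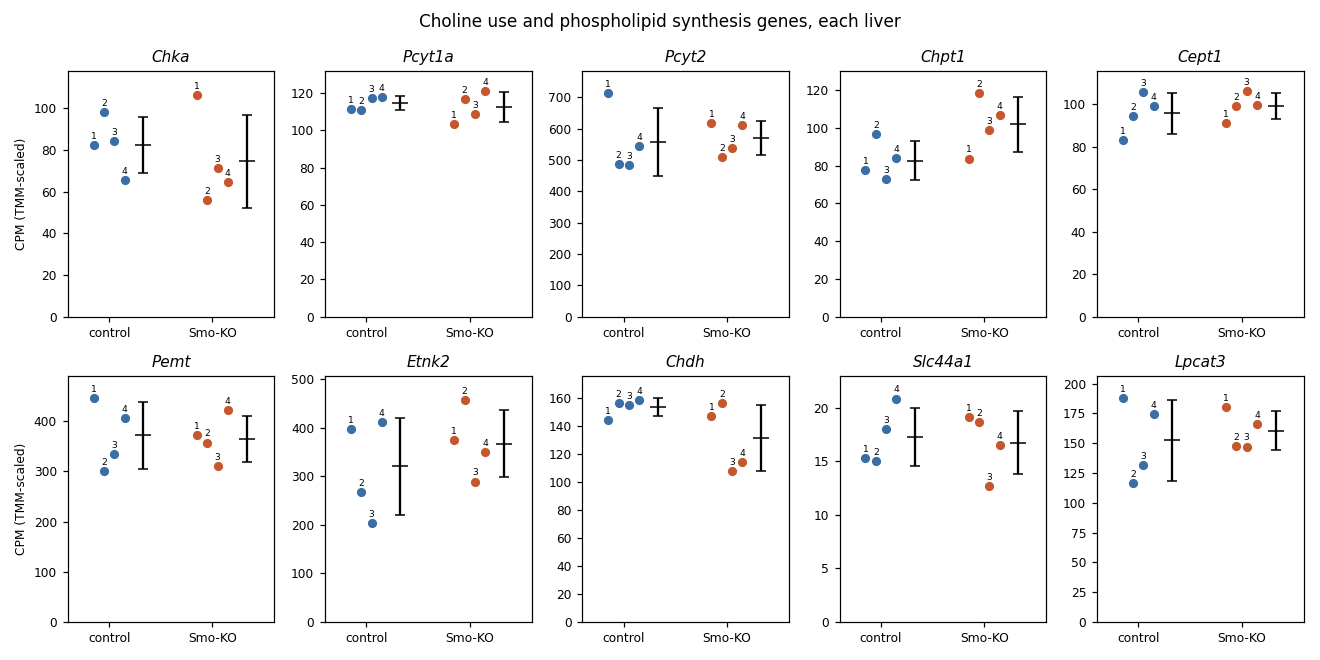
CPM (y axis, from 0) of each of the 10 genes in control (blue) and Smo-KO (orange) livers, with 1 dot per liver numbered by mouse and a bar for mean ± SD. The groups overlap in every panel. Chpt1 has 3 Smo-KO livers above the highest control, and Chdh has 2 below the lowest. Chka and Pcyt1a also have 2 below the lowest control, and each has 1 above the highest.

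Slc44a1 (chr4:53440413-53622478, plus strand in GRCm38, as all gene positions here) encodes CTL1, a choline transporter of the plasma and mitochondrial membranes. It was the least abundant of the 10 genes, at 15.3, 14.99, 18.0 and 20.9 CPM in controls 1 to 4, against 19.2, 18.7, 12.7 and 16.5 CPM in Smo-KO livers 1 to 4. The groups overlapped almost fully, and the log2 fold change was -0.04 (standard error 0.15). Among 10 genes listed for choline uptake, 7 passed the filter on low counts, and 0 of the 7 had an unadjusted p under 0.05 in edgeR's test, against 13.8% of all genes tested. Among them, Slc44a3 had a log2 fold change of -0.10 and Flvcr1 of 0.07. Slc5a7, the high-affinity choline transporter of nerve endings, and Slc44a5 had 0 reads in every library.

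Chka (chr19:3851773-3894369, plus strand) encodes choline kinase alpha, the entry step of the CDP-choline route. It measured 82.1, 98.2, 84.2 and 65.4 CPM in controls 1 to 4, against 106, 55.7, 71.2 and 64.6 CPM in Smo-KO livers 1 to 4. Smo-KO mouse 1 was the highest of all 8 livers and Smo-KO mouse 2 the lowest. Between groups the log2 fold change was -0.15 (standard error 0.18; adjusted p 0.758 in edgeR). Without Smo-KO mouse 1 it was -0.36, with an unadjusted p of 0.0209 and an adjusted p of 0.201 in the same test. It was -0.0283 without Smo-KO mouse 2 (unadjusted p 0.875) and -0.0480 without control mouse 2 (unadjusted p 0.803), so its size rests on single mice. The second choline kinase gene, Chkb, had 1 read over all 8 libraries. Of its 3061 exonic bases, 1552 are shared with the readthrough gene Gm44502 on the same strand, and reads on more than 1 gene were left out as ambiguous in these files. Whether this overlap lowered the count was not tested.

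Pcyt1a (chr16:32430921-32475070, plus strand) encodes the cytidylyl transferase that limits the rate of the CDP-choline route. It was the steadiest of the 10 genes, at 112, 111, 118 and 118 CPM in controls 1 to 4, against 104, 117, 109 and 121 CPM in Smo-KO livers 1 to 4. The lowest and the highest liver were both Smo-KO, 1.17-fold apart, and the control values lay between them. The fold between groups was 0.983, with a 95% interval from 0.869 to 1.11. Pcyt1b, the other form of the enzyme, had from 2 to 9 reads per liver and did not pass the filter.

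The proximal promoter of Pcyt1a is shown because, of the 9 genes matched in the RefSeq table (Pcyt2 was not), Pcyt1a was the 1 gene with a window that holds the letters of a sterol regulatory element, TCACNCCAC, the kind of site that SREBP factors bind. A window of 250 bases before to 50 bases after each start was searched on both strands, and 1.24% of the 32851 windows of all genes hold these letters; a gene with several starts has several windows, and Pcyt1a has 3. The stretch below is the 250 bases before the first of these starts, on the plus strand of chr16:32430671-32430920 (GRCm38.p6), with the match in capitals, 116 to 108 bases before the start.
Pcyt1a: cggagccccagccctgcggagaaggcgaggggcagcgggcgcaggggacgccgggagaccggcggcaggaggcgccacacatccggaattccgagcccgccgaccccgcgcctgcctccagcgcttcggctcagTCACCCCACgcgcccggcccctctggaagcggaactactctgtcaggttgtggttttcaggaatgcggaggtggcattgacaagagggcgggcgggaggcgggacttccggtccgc
Srebf1, which encodes SREBP-1, measured 211, 128, 163 and 161 CPM in controls 1 to 4, against 151, 112, 75.6 and 158 CPM in Smo-KO livers 1 to 4. Its log2 fold change was -0.42 (standard error 0.20, adjusted p 0.388 in edgeR's test), with overlapping groups. A match of letters is no evidence that a factor binds there.

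Chpt1 (chr10:88452745-88504073, minus strand) encodes cholinephosphotransferase, which makes phosphatidylcholine from CDP-choline and diacylglycerol. It measured 77.6, 97.0, 72.7 and 83.9 CPM in controls 1 to 4, against 83.8, 118, 99.0 and 107 CPM in Smo-KO livers 1 to 4. Smo-KO mice 2, 3 and 4 lay above every control, whereas Smo-KO mouse 1 lay within the control range. It was 1.23-fold higher by fitted values, a log2 fold change of 0.30 (standard error 0.12), with an unadjusted p of 0.0262 and an adjusted p of 0.294 in edgeR's test. The exact permutation test of the 8 values gave a two-sided p of 0.0857. With each mouse left out in turn the log2 fold change stayed between 0.22 and 0.39, and the unadjusted p was above 0.05 without control mouse 1, control mouse 3, Smo-KO mouse 2 or Smo-KO mouse 4. Sycp3, a gene of meiotic chromosomes on the opposite strand, shares 660 exonic bases with Chpt1 in the GENCODE annotation, and the kit named in the labels is not described as keeping strand. Sycp3 had 2.76 ± 0.799 CPM in control and 4.42 ± 0.635 CPM in Smo-KO livers (SD, n = 4 each), the groups not overlapping, and its part in the Chpt1 value was not tested.

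The upstream sequence of Chpt1, the 1 gene called at the unadjusted threshold, is shown for comparison with that of Pcyt1a. It covers the 147 bases before the first annotated exon, on the minus strand of chr10:88504074-88504220 (GRCm38.p6), with a CCAAT box and a GC box (CCGCCC, which is GGGCGG on the other strand) in capitals. The full window of Chpt1 holds 5 GC boxes and 1 CCAAT box, and that of Pcyt1a above holds 2 GC boxes and 0 CCAAT boxes. Neither motif is particular to Chpt1: of the 9 genes, 8 have a window with a GC box and 5 have one with a CCAAT box. Of all windows, 35.7% and 37.4% hold the respective letters at least once on either strand.
Chpt1: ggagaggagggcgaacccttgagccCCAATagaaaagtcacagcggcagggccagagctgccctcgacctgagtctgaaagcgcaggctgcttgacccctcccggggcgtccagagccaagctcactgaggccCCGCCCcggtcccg
No window of the 9 genes holds an E box (CACGTG, in 7.15% of all windows). Chdh alone among them holds an AP-1 site (TGAGTCA, 5.20%).

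Cept1 (chr3:106502260-106547802, minus strand) encodes the phosphotransferase that accepts both CDP-choline and CDP-ethanolamine. It measured 83.2, 94.4, 106 and 99.3 CPM in controls 1 to 4, against 91.3, 99.3, 106 and 99.8 CPM in Smo-KO livers 1 to 4, a log2 fold change of 0.05 (standard error 0.09). The Smo-KO values fell inside the control range but for the highest, which exceeded it by less than the spread between mice. Selenoi, the ethanolamine phosphotransferase of the same family, had a log2 fold change of -0.18 (standard error 0.13).

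In the ethanolamine branch, Etnk2 (chr1:133363572-133380336, plus strand) encodes an ethanolamine kinase that is abundant in liver. It measured 398, 268, 204 and 412 CPM in controls 1 to 4, against 374, 457, 289 and 350.0 CPM in Smo-KO livers 1 to 4. It varied most of the 10 genes, 2.24-fold between the lowest liver (control mouse 3) and the highest (Smo-KO mouse 2), and 2.02-fold among controls alone. Its log2 fold change was 0.20 (standard error 0.20, adjusted p 0.704 in edgeR's test), and it ran from 0.0373 without control mouse 3 to 0.35 without control mouse 4. Its relative Etnk1 was steadier, at 82.0 ± 6.17 CPM in control and 85.7 ± 3.84 CPM in Smo-KO livers (SD, n = 4 each).

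Pcyt2 (chr11:120610087-120617936, minus strand) encodes the cytidylyl transferase that sets the pace of phosphatidylethanolamine synthesis. It had the most reads of the 10 genes, at 714, 486, 484 and 544 CPM in controls 1 to 4, against 619, 509, 539.5 and 611 CPM in Smo-KO livers 1 to 4. All 4 Smo-KO values lay within the control range, which control mouse 1 stretched upward. The difference, 0.03 on the log2 scale (standard error 0.13), had no stable direction and became -0.025 without control mouse 2 or 3. Phosphatidylethanolamine also arises from phosphatidylserine, and 0 of the 3 genes of that route had an unadjusted p under 0.05 in edgeR's test (13.8% of all genes tested did): Pisd, the decarboxylase, had a log2 fold change of -0.10, Ptdss1 of -0.11 and Ptdss2 of -0.02.

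Pemt (chr11:59970614-60046489, minus strand) encodes the methyltransferase that turns phosphatidylethanolamine into phosphatidylcholine, the one route by which the liver makes choline anew. It measured 447, 300.3, 334 and 407 CPM in controls 1 to 4, against 372, 358, 310.4 and 422 CPM in Smo-KO livers 1 to 4. All Smo-KO values fell between the lowest and the highest control. The fold between groups was 0.983 with a 95% interval from 0.806 to 1.20, the Smo-KO mean lying within 1 SD of the control mean.

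Of 8 genes listed for Pemt and the turnover of its methyl donor, 7 had a fitted log2 fold change above 0 (median 0.09), where 6470 of all 12977 genes did, and 1 (12.5%) had an unadjusted p under 0.05 in edgeR's test, against 13.8% of all genes tested. This was Nnmt, which uses S-adenosylmethionine to methylate nicotinamide. It measured 3.29, 5.77, 3.58 and 4.25 CPM in controls 1 to 4, against 7.42, 14.0, 6.22 and 4.48 CPM in Smo-KO livers 1 to 4. Smo-KO mice 1, 2 and 3 lay above every control, and the log2 fold change was 0.92 (standard error 0.32, unadjusted p 0.0120, adjusted p 0.241 in edgeR's test), or 0.51 without Smo-KO mouse 2 (unadjusted p 0.0562). The most abundant gene was Mat1a, which makes S-adenosylmethionine in hepatocytes, at 1644 ± 277 CPM in control and 1745 ± 100.3 CPM in Smo-KO livers (SD, n = 4 each). Gamt had a log2 fold change of 0.14. Ahcy, which clears the product of methylation, was 715 CPM in Smo-KO mouse 1 and 438 CPM in control mouse 4, against 168 to 243 CPM in the other 6 livers. Without Smo-KO mouse 1 the log2 fold change of Ahcy moved from 0.39 to -0.28. That of Mat1a, 0.09, was as low as 0.0106 with 1 mouse left out. The 8 genes share mice and libraries, so their directions are not independent.

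Chdh (chr14:30009023-30040527, plus strand) encodes choline dehydrogenase, the mitochondrial enzyme that commits choline to oxidation. It measured 144, 156, 155 and 158 CPM in controls 1 to 4, against 147, 156, 108 and 114 CPM in Smo-KO livers 1 to 4. The Smo-KO livers fell into a pair within the control range (mice 1 and 2) and a pair well below it (mice 3 and 4), so the mean of 131 ± 23.9 CPM describes no single liver. The log2 fold change was -0.22 (standard error 0.12, unadjusted p 0.0797, adjusted p 0.417 in edgeR's test). It was -0.28 without Smo-KO mouse 1 (unadjusted p 0.0489) and -0.32 without mouse 2 (0.0183), but -0.14 without mouse 3 (0.231) and -0.16 without mouse 4 (0.218), the 2 livers with low values. Cacna1d on the opposite strand shares 589 exonic bases with Chdh, with 6.38 ± 1.58 CPM in control and 7.41 ± 1.93 CPM in Smo-KO livers. Dennd2d likewise shares 771 exonic bases with Cept1, with 21.4 ± 1.47 and 23.7 ± 1.83 CPM. Emg1 shares 334 with Lpcat3, with 31.2 ± 1.74 and 30.6 ± 1.66 CPM (SD, n = 4 each). The part of these genes in the values of Chdh, Cept1 and Lpcat3 was not tested.

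Of 9 genes listed for choline oxidation and betaine breakdown, Chdh included, 0 had an unadjusted p under 0.05 in edgeR's test, against 13.8% of all genes tested. Their fitted log2 fold changes lay between -0.32 (Slc25a48) and -0.0088 (Pipox), all 9 below 0 with a median of -0.12, where 6507 of all 12977 genes were below 0. With each mouse left out in turn, between 7 and 9 of the 9 remained below 0. Aldh7a1, the dehydrogenase that completes betaine synthesis, had 412 ± 39.8 CPM in control and 353 ± 43.2 CPM in Smo-KO livers (SD, n = 4 each; log2 fold change -0.22). Bhmt, which passes a methyl group of betaine to homocysteine, was the most abundant, at 2076 ± 241 and 1911 ± 333 CPM. Dmgdh, the next enzyme in line, had a log2 fold change of -0.12. Genes of the same arm share mice and libraries, so the 9 directions are not independent.

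Lpcat3 (chr6:124663027-124704418, plus strand) encodes the acyltransferase that puts polyunsaturated chains into phosphatidylcholine, and it is known as a target of the liver X receptors (LXR). It measured 188, 116, 131 and 174 CPM in controls 1 to 4, against 181, 148, 147 and 166 CPM in Smo-KO livers 1 to 4. The Smo-KO values all lay within the wider control range, and the log2 fold change was 0.07 (standard error 0.14). Of 9 genes listed as lysophospholipid acyltransferases, 8 were tested and 1 had an unadjusted p under 0.05 in edgeR's test (13.8% of all genes tested did), Lpcat4, with 4.69 ± 1.64 CPM in control and 3.16 ± 0.198 CPM in Smo-KO livers (SD, n = 4 each). Its unadjusted p was above 0.05 without any single mouse other than control mouse 3, and its log2 fold change moved from -0.56 to -0.34 without control mouse 1. Lpcat2 had a log2 fold change of -0.24 and Lpcat1 of 0.19. Of 11 LXR target genes, Lpcat3 among them, 0 had an unadjusted p under 0.05, against the same 13.8%. The most abundant of these was Nr1h3, the gene of LXR alpha, with a log2 fold change of 0.05, while Abcg5 and Abcg8, the sterol exporters, had 0.41 and 0.27 and Srebf1, with the smallest p of the list, had -0.42. With single mice left out, Abcg5 was as low as 0.14 (without Smo-KO mouse 4), Abcg8 0.14 (without control mouse 3) and Srebf1 -0.24 (without Smo-KO mouse 3).

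**Figure D3:**
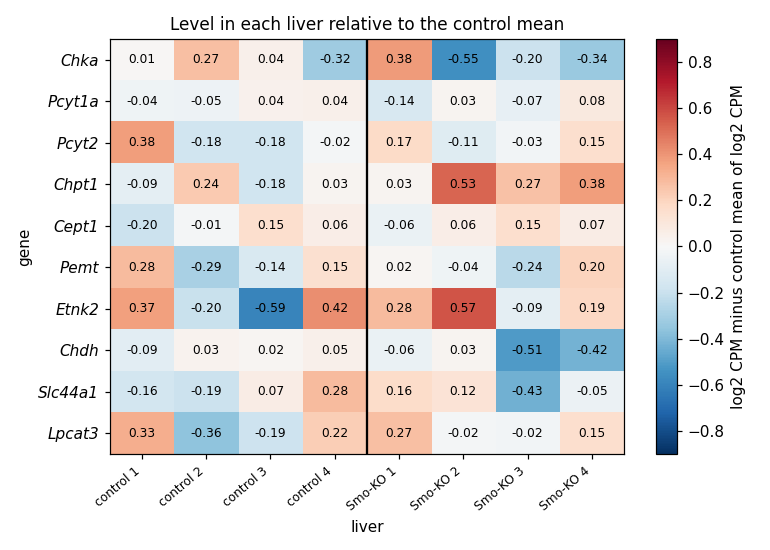
Level of each of the 10 genes (rows) in each liver (columns, the line dividing control from Smo-KO) as log2 CPM minus the control mean of log2 CPM, written in each cell and coloured from blue (lower) to red (higher). Pcyt2, Pemt, Etnk2 and Lpcat3 differ among the control livers themselves, from -0.59 to 0.42; Chpt1 is above 0.2 in 3 Smo-KO livers and in control mouse 2 (0.24), and Chdh is below -0.4 in 2.

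The spread between mice was larger than the difference between genotypes for most of these genes, and it was shared among some of them. In control mouse 1, Pcyt2, Pemt and Lpcat3 all had their highest value of the 8 livers and Cept1 its lowest. In control mouse 2, Pemt and Lpcat3 had their lowest value, and in control mouse 3, Pcyt2, Chpt1 and Etnk2 had theirs. Control mouse 4 was above the median of the 8 livers in 8 of the 10 genes. Smo-KO mouse 3 had the lowest Chdh and Slc44a1 and the highest Cept1, and lay above the median in 2 of the 10 genes. This mouse also had the fewest reads on genes, and any part of depth in these values was not tested. The pooled SD between mice of a group had a median of 0.22 (log2) over the 10 genes and of 0.19 over all genes tested that had reads in every liver.

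Ratios of RNA levels within a liver, taken per exon length, are given without a test. The ratio of Chdh to Chka, whose enzymes oxidize and phosphorylate choline, lay between 3.08 and 4.68 in controls and between 2.67 and 5.41 in Smo-KO livers. Pemt to Pcyt1a, of the methylation and the CDP-choline route, lay between 9.54 and 14.1 in controls and between 10.1 and 12.6 in Smo-KO livers. Pcyt1a to Pcyt2 ran from 0.0917 to 0.142 and from 0.0982 to 0.134. Etnk2 to Chka had the widest range, from 6.39 to 16.6 and from 9.26 to 21.6. Chpt1 to Cept1 lay between 0.257 and 0.385 in controls and between 0.343 and 0.447 in Smo-KO livers. The groups overlapped in all 5 ratios.

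Around these 10 genes, 71 others of choline and phospholipid metabolism were listed by role and found in the files, and 64 of them passed the filter on low counts. None passed 0.05 after adjustment in edgeR, and DESeq2's Wald test called 1 of the 64, Gpcpd1 (1.56%, against 1.26% of all genes tested). At an unadjusted p under 0.05 in edgeR's test, 6 of the 64 were called (9.38%), 4 higher and 2 lower in Smo-KO livers, against 13.8% of all genes tested (6.7% higher and 7.15% lower). The 6 were Gpcpd1, Gde1, Nnmt and Ptpmt1 (higher) and Plaat3 and Lpcat4 (lower). In 1 of the 64 (1.56%) the groups did not overlap, against 7.37% of all genes tested. This was Cdipt, the phosphatidylinositol synthase, with 104 ± 1.51 CPM in control and 96.9 ± 4.69 CPM in Smo-KO livers (SD, n = 4 each). Without control mouse 1, 11 of the 64 (17.2%) had an unadjusted p under 0.05, against 14.9% of all genes tested in that fit, and without Smo-KO mouse 1, 8 did (12.5%), against 17.8%.

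**Figure D4:**
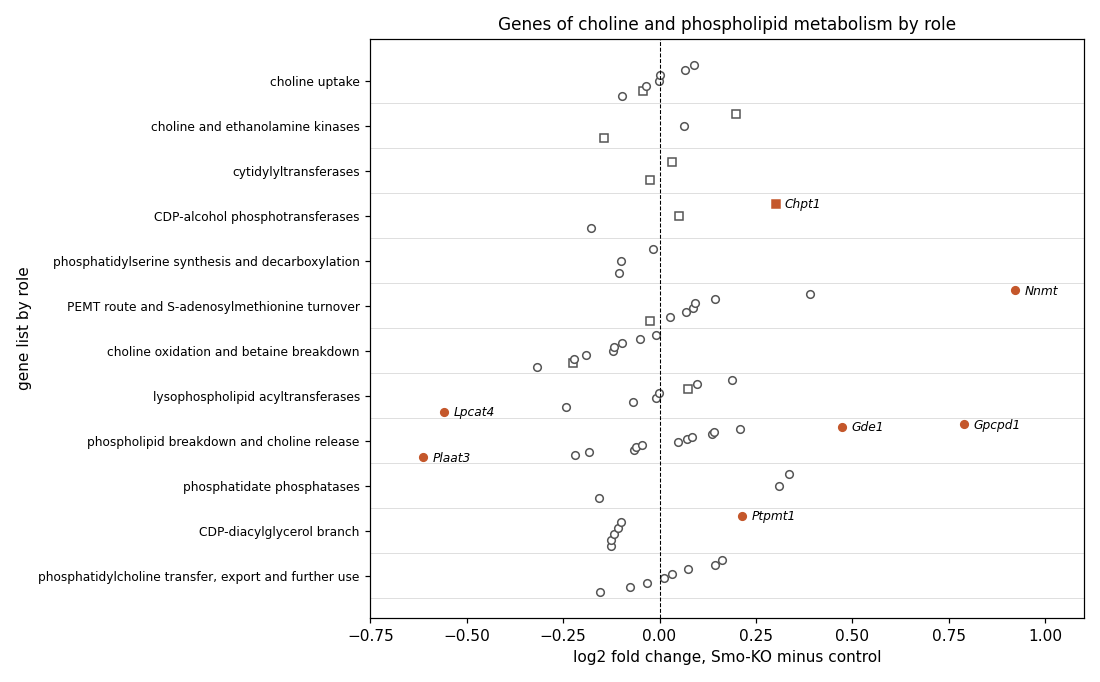
Log2 fold change (x axis, Smo-KO minus control) of every tested gene of 12 lists by role (y axis), with squares for the 10 genes of this report and circles for the others; filled and named markers have an unadjusted p under 0.05 in edgeR. Most genes lie close to 0, and those farthest to the right are Nnmt (0.92) and Gpcpd1 (0.79).

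In the breakdown of phospholipid, 3 of 14 genes tested had an unadjusted p under 0.05 in edgeR's test (2 higher and 1 lower), against 13.8% of all genes tested. Gpcpd1 encodes a glycerophosphodiesterase that splits glycerophosphocholine, an end product of phosphatidylcholine breakdown, and so frees choline. It measured 61.2, 59.3, 52.1 and 80.4 CPM in controls 1 to 4, against 78.2, 146, 98.7 and 115 CPM in Smo-KO livers 1 to 4. Smo-KO mice 2, 3 and 4 were above every control, and Smo-KO mouse 1 was just under the highest control. Its log2 fold change of 0.79 (standard error 0.18) had an adjusted p of 0.133 in edgeR and of 0.0054 in DESeq2's Wald test, and it stayed between 0.62 and 0.93 with each mouse left out in turn. In edgeR its adjusted p was 0.0309 once Smo-KO mouse 1 was dropped and 0.0388 with no filter on low counts. Under other settings it was as high as 0.262.

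Gde1, a glycerophosphodiesterase of membranes, measured 97.1, 63.0, 70.8 and 82.6 CPM in controls 1 to 4, against 86.4, 108, 136 and 105 CPM in Smo-KO livers 1 to 4. As with Gpcpd1, Smo-KO mouse 1 was the mouse that lay within the control range. For Gde1 the log2 fold change was 0.47 (standard error 0.15, adjusted p 0.217 in edgeR's test). Plaat3, a phospholipase and acyltransferase, went the other way, with 20.6, 19.3, 35.4 and 29.6 CPM in control and 15.6, 12.2, 23.7 and 17.5 CPM in Smo-KO livers 1 to 4. Its log2 fold change was -0.61 (standard error 0.22, adjusted p 0.249 in edgeR's test), or -0.43 without control mouse 3 (unadjusted p 0.0600). Lypla1, the most abundant of the list, had a log2 fold change of 0.14.

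**Figure D5:**
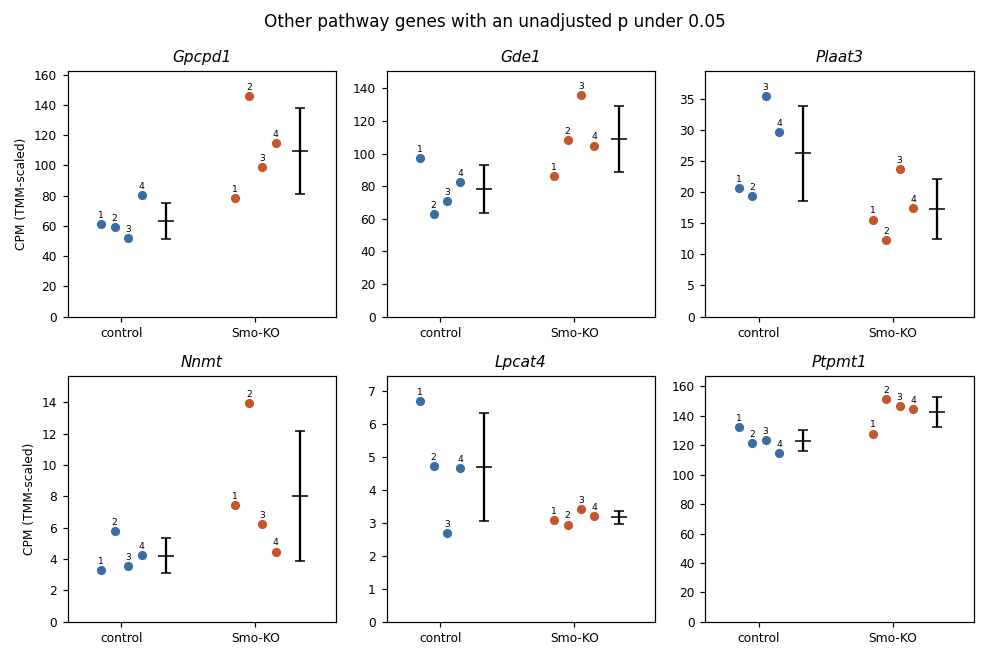
CPM (y axis, from 0) of the 6 other pathway genes with an unadjusted p under 0.05 in edgeR, in control (blue) and Smo-KO (orange) livers, with 1 dot per liver numbered by mouse and a bar for mean ± SD. In Gpcpd1, Gde1, Nnmt and Ptpmt1, 3 of the 4 Smo-KO livers lie above the highest control.

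For the remaining roles the share of all genes tested with an unadjusted p under 0.05 in edgeR's test, 13.8%, again serves as the background. In the branch that leads from CDP-diacylglycerol to phosphatidylinositol and cardiolipin, 1 of 6 genes tested (16.7%) had such a p, Ptpmt1, the phosphatase of the cardiolipin route, with 123 ± 7.13 CPM in control and 143 ± 10.2 CPM in Smo-KO livers (SD, n = 4 each), its unadjusted p being above 0.05 without control mouse 2 or 4 or Smo-KO mouse 2, 3 or 4 (log2 fold change 0.19 to 0.21). Cds2, which makes CDP-diacylglycerol, had a log2 fold change of -0.11. Of the 3 lipins, which supply diacylglycerol, 0 passed, with log2 fold changes of 0.33 for Lpin2 (standard error 0.18), 0.31 for Lpin1 (0.32) and -0.16 for Lpin3 (0.17). Lpin1 was at -0.0049 without Smo-KO mouse 2, and Lpin3 ran from -0.34 without Smo-KO mouse 1 to -0.0498 without mouse 3. Of 8 genes for the transfer, export and further use of phosphatidylcholine, 0 passed. The most abundant of them was Stard10, a phospholipid transfer protein, with a log2 fold change of 0.14, while Pctp, another, had 0.16 and the sphingomyelin synthase Sgms2 had -0.15.

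Markers of other liver cells were read in the same libraries, since several of the listed genes are also expressed outside hepatocytes. Their part in the values above was not tested. Over all genes tested, 7.15% were lower and 6.7% higher at an unadjusted p under 0.05 in edgeR's test. In 4.34% the Smo-KO values all lay below the controls, and in 3.03% they all lay above. Of 9 lymphocyte markers tested, 6 were lower at this threshold and in 3 the Smo-KO values all lay below the controls. Their summed level was 55.0, 51.6, 47.6 and 62.5 CPM in controls 1 to 4, against 27.0, 24.3, 41.2 and 38.6 CPM in Smo-KO livers 1 to 4, with Nkg7 the most abundant (log2 fold change -0.94), Cd8a at -0.77 and Cd3e at -0.98. Klrb1c did not pass the filter. DESeq2's Wald test called 3 of the lymphocyte markers after adjustment, Cd8a, Nkg7 and Cd3e (1.26% of all genes tested were called). Of 10 macrophage markers, 1 passed the unadjusted threshold in edgeR and was also called by DESeq2 (adjusted p 0.000156), Trem2, its groups not overlapping, at 33.6 ± 2.94 CPM in control and 56.5 ± 9.70 CPM in Smo-KO livers (SD, n = 4 each). The macrophage sum was 1521, 1345, 1930 and 1679 CPM in control and 1979, 1354, 1508 and 1624 CPM in Smo-KO livers 1 to 4, with Cd5l the most abundant and log2 fold changes of 0.16 for Gpnmb and -0.13 for Csf1r.

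Of 8 sinusoidal endothelial markers, 2 were lower at that threshold (7.15% of all genes tested were), Dnase1l3 (log2 fold change -0.51) and Pecam1 (-0.50), while Kdr had -0.27 and the most abundant, Clec4g, -0.26. Without Smo-KO mouse 1, Kdr had -0.46 and Clec4g -0.45, and without Smo-KO mouse 2, Dnase1l3 had -0.33 (unadjusted p 0.0515) and Pecam1 -0.34 (0.0753). The unadjusted p of both was also above 0.05 without control mouse 3 or Smo-KO mouse 3. Their sum was 243, 235, 284 and 284 CPM in control and 297, 141, 189.5 and 246 CPM in Smo-KO livers 1 to 4, so that mouse 2 was lowest and mouse 1 highest of all 8 livers. Of 9 stellate cell and fibroblast markers, 4 had fitted values above and 5 below control (median log2 fold change -0.03). Among them Col1a1 was lower at that threshold (-0.36), Col1a2 had -0.24, Col3a1, the most abundant, -0.23 and Acta2 0.36, or 0.0911 without Smo-KO mouse 4, with a sum of 1192 ± 70.4 CPM in control and 1094 ± 162 CPM in Smo-KO livers. Cholangiocyte markers (0 of 6 tested, with log2 fold changes of 0.42 for Epcam, 0.29 for the most abundant, Spp1, and -0.19 for Sox9, or -0.35 without Smo-KO mouse 1) summed to 151 ± 42.6 and 180.1 ± 46.2 CPM. Neutrophil markers (0 of 3 tested, with 0.22 for Csf3r, the most abundant, and -0.14 and -0.15 for S100a9 and S100a8) summed to 23.6 ± 5.93 and 24.5 ± 2.75 CPM, and the defining neutrophil gene Ly6g had 0 reads in every library. Of the 10 hepatocyte markers, 1 was lower at that threshold, Cps1 of the urea cycle (log2 fold change -0.33, groups not overlapping), with -0.62 for Tat and 0.24 for Cyp2e1, and the hepatocyte sum was 35949 ± 2407 CPM in control and 35089 ± 991 CPM in Smo-KO livers (SD, n = 4 each).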

How the data were processed

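RNA of 8 whole livers was sequenced by the study. Per the labels, the submitters' processing notes name fastp, STAR 2.7.5, featureCounts 2.0.1 and the build GRCm38, while the deposited lists end in the entries that htseq-count writes; the annotation and the strand setting are not given in the sources used here. The authors deposited 1 list of unnormalized read counts per gene symbol and liver. Reads on no feature (8.33% in control and 9.23% in Smo-KO livers on average) and on more than 1 gene (2.55% and 2.51%) were left out. No 2 libraries of a group were copies (chi-square per degree of freedom 7.76 or more). Nothing states that molecular identifiers were used, so depth describes counting error only.

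Counts were tested with edgeR 4.0.16 under R 4.3.3 (low counts removed by filterByExpr, TMM scaling, quasi-likelihood F test, genotype as the only term, Benjamini-Hochberg over 12977 genes). DESeq2 1.42.0 was an alternative. Single values were compared by exact permutation over 70 assignments, two-sided. Standard errors and intervals follow from edgeR's F statistic. Exon lengths and gene overlaps came from GENCODE M21 (GRCm38), promoters from RefSeq (GRCm38.p6). The edgeR procedure was tested on simulated data. Alternatives were RLE and upper quartile size factors, DESeq2, no filter, at least 10 counts in every sample, a replicate block and each mouse left out. The 10 genes and all lists were chosen with earlier results of these data known. Named were the 10 genes, Smo, the most abundant gene of each list and the 3 with its smallest p. A result under this rule is not reported here. Outside this rule, Slc25a48, Pipox, Acta2, Chkb, Pcyt1b, Slc5a7, Slc44a5, Klrb1c, Ly6g and the genes overlapping Chpt1, Chdh, Cept1 and Lpcat3 were named after their values were seen. Of 82 pathway symbols, 81 were in the files.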

Additional observations from a re-analysis of the deposited data

Results flagged for a closer look

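In 166 groups of 4 livers examined (named genes, ratios, marker sums and reads on genes, each per genotype), the rule for distant values singled out 1 mouse in 4 groups; about 8.3 would be singled out by chance, or 1 in 20. None concerned the 10 genes or their ratios. Ahcy was 715 CPM in Smo-KO mouse 1, against 186 to 243 CPM in the other Smo-KO mice, and without this mouse its log2 fold change moved from 0.39 to -0.28. Reads on genes were 8203299 in Smo-KO mouse 3, against 9367795 to 9543675. Cd8a was 11.001 CPM in control mouse 1, against 9.44 to 9.54 CPM. Sox9 was 13.7 CPM in Smo-KO mouse 1, against 8.94 to 9.76 CPM. The causes were not tested.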

How the results depend on the processing

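The median over all genes shifted by less than 0.1 (log2) under every scaling run. For the 10 genes, 0 of 60 values under other size factors, filters, tests or the block changed direction, and 0 of all 140 values had an adjusted p under 0.05. Leaving out 1 mouse turned the direction of 6 genes: ranges were -0.0620 to 0.0203 for Pcyt1a, -0.0252 to 0.17 for Pcyt2, -0.0112 to 0.11 for Cept1, -0.11 to 0.0745 for Pemt, -0.11 to 0.0651 for Slc44a1 and -0.0324 to 0.19 for Lpcat3. Chka (-0.36 to -0.0283), Chpt1 (0.22 to 0.39), Etnk2 (0.0373 to 0.35) and Chdh (-0.32 to -0.14) kept theirs. The number of the 10 genes with an unadjusted p under 0.05 ran from 0 to 3 with 1 mouse left out. It was 3 without Smo-KO mouse 1 (Chka, Chpt1 and Chdh), where 17.8% of all genes tested passed, and 0 without control mouse 1 (14.9%), control mouse 3 (10.6%) or Smo-KO mouse 4 (10.2%). For the other pathway genes, an alternative added after seeing the data, it ran from 4 to 11, and without control mouse 1 it was 11. Of 45 other genes that the naming rule gives and that had no call at an unadjusted p under 0.05, 40 turned direction (7) or moved by over 1.5 times in log2 fold change with 1 mouse left out, so their values carry no stable size. Of the 14 with a call, 0 turned and 3 moved that far.

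Over all genes, 0 had an adjusted p under 0.05 (1797 at an unadjusted p under 0.05), but 61 did with no filter, 163 with DESeq2 and 8 with the replicate block. With 1 mouse left out the number ran from 0 to 78, being 78 without Smo-KO mouse 1, 5 without control mouse 1 and 4 without Smo-KO mouse 3, and unadjusted calls ran from 1244 to 2332. Smo had an adjusted p under 0.05 with no filter (log2 fold change -0.88), with DESeq2 (-0.87) and without Smo-KO mouse 1 (-0.997), and ran from -0.997 to -0.81 with 1 mouse left out. The replicate numbers are not stated to pair mice, and deviations of equal numbers correlated at 0.0611 to 0.187, with 5 of 8 livers correlating best with their own number. The cause of these changes was not tested. Slc44a1, with 104 to 211 reads, has the least depth of the 10 genes.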
